A study of Mus musculus with 12 samples.

Results

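Dermal papilla cells from mice with a gain-of-function form of Smo (Smo*) were compared at postnatal day 28 (P28), labelled early anagen (anagen I-III), and at P20, labelled telogen. The comparison used 6 of the 12 RNA sequencing libraries of the series, chosen by their labels alone: 3 Smo* libraries at P28 and 3 at P20. The other 6 libraries came from wild type (WT) mice, 3 at P20 (female, telogen) and 3 at P28 (male, labelled Anagen VI), and served as the reference for the same change of age. All cells were primary papilla cells collected by flow sorting, and the series title places the Smo* form in the dermal papilla, although the labels name no Cre line or promoter. The P20 Smo* libraries were from females and the P28 Smo* libraries from males, so age, hair cycle stage and sex cannot be told apart in this comparison. Genes of the X and Y chromosomes were therefore left out. The labels do not say whether the libraries of a group came from separate animals, so the p-values measure the spread between these libraries, which may be technical. Replicate numbers below name Smo* libraries unless WT is stated.

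The dermal papilla is a cluster of mesenchymal cells enclosed by the lower end of the hair follicle, and it signals to the epithelial stem cells above it. At the start of anagen, the growth phase, papilla cells release Wnt activators such as R-spondins, fibroblast growth factors and inhibitors of BMP signalling, and during telogen, the resting phase, BMP signals hold the stem cells quiet. Hedgehog ligand from the epithelium reaches the papilla, where it relieves the inhibition of Smo by Ptch1 and activates Gli transcription factors. Gli1, Ptch1 and Hhip are direct targets of this pathway, and Ptch1 and Hhip feed back to restrain it.

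The 6 Smo* libraries held 39428285 to 44874858 reads on genes. P28 replicate 3 stood apart from the others. It had reads on 15453 genes, against 17529 to 17926 in the other 5 libraries, and 1054 genes were at 0 in it alone, against 24 to 75 in each of the others. Its rank correlation with its own replicates was at most 0.9686 (Spearman, across genes), and the remaining pairs within the Smo* groups reached at least 0.9817. The summed papilla signature genes took 0.243% of its reads, against 0.692% and 1.19% in P28 replicates 1 and 2 and 0.612% to 0.833% at P20. Adipocyte markers took 0.0754% of its reads, against 0.0296% to 0.0537% in the other 5. Cfd, an adipocyte secreted protease, stood at 8165 normalized counts there, 100 and 0 in the other P28 libraries, and 830, 6.97 and 1827 at P20. Counts over all genes tested, and the changes of part of the named genes, are given with and without this library. The part of its cell makeup or RNA quality in the results was not tested.

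Smo transcripts stood at 6351, 7528 and 7342 normalized counts in P20 replicates 1, 2 and 3, and at 7487, 8694 and 7551 in P28 replicates 1, 2 and 3. All 6 values were above the 6 WT values, which ran from 5037 to 6144. Smo did not pass the test between the 2 Smo* ages, with a log2 fold change of 0.16 (SE 0.10, adjusted p = 0.374).

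Across 14268 autosomal genes, 507 passed limma's test at an adjusted p of 0.05 between P20 and P28 Smo* papilla, which is 3.55% of those tested. Of these, 290 were higher at P28 (2.03%) and 217 lower (1.52%), and 256 changed at least 2-fold. Without P28 replicate 3 the count was 975 (6.83%), with 681 higher (4.77%) and 294 lower (2.06%). Of the 507 genes, 412 were also called without that library in the same direction, 244 higher and 168 lower, and none reversed. The 5 that the naming rule picked from the 95 lost genes, as the largest changes, were decreases in Evpl, Slc26a7, Dio3, Tacr1 and Sag, with adjusted p from 0.0432 to 0.0496 with all libraries and from 0.0506 to 0.0702 without P28 replicate 3. The P20 and P28 values did not overlap in 503 of the 507, while 24.4% of all genes tested had no overlap (41.0% without P28 replicate 3, where 2 libraries face 3). The spread in this comparison was borrowed from all 12 libraries: a fit on the 6 Smo* libraries alone called 53 genes, 49 of them among the 507.

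The calls also rested on single libraries. Leaving out P28 replicate 1 gave 33 genes and P20 replicate 3 gave 74, while P20 replicate 1 gave 167 and P28 replicate 2 gave 224. Of 70 called genes that the naming rule picked, 60 lost the call without P28 replicate 1, 57 without P20 replicate 3, 40 without P28 replicate 2, 39 without P20 replicate 1, 27 without P20 replicate 2 and 10 without P28 replicate 3. Leaving out a WT library ended 11 to 23 of them. The 10 that kept it with each of the 12 libraries left out in turn were Dkk2, Gpc5, Lgr6, Myocd, Orm1, Pdgfc, Rasd1, Sfrp1, Tnn and Wnt10a. Sfrp1 rose and the other 9 fell.

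Of those, 6 genes kept their call in all 28 alternative settings, and all 6 were lower at P28. Tnn (ENSMUSG00000026725, chromosome 1, 160085029 to 160153580, minus strand), which encodes the matrix glycoprotein tenascin-N, stood at 2575, 3471 and 4405 normalized counts at P20 and at 247, 298 and 287 at P28. The groups lay far apart, and P28 replicate 3 sat with its replicates. The log2 fold change of Tnn was -3.62 (SE 0.26, adjusted p = 0.000112) and -3.64 without P28 replicate 3. Gpc5 (ENSMUSG00000022112, chromosome 14, 115092215 to 116525179, plus strand), a membrane-anchored heparan sulfate proteoglycan, went from 604, 661 and 1427 to 40.8, 67.3 and 56.7 (log2 fold change -3.92, SE 0.37, adjusted p = 0.00125). Rasd1 (ENSMUSG00000049892, chromosome 11, 59963181 to 59964944, minus strand), a glucocorticoid-inducible Ras-related GTPase, went from 3777, 6158 and 4825 to 629, 399 and 676 (log2 fold change -3.12, SE 0.32, adjusted p = 0.00176). In all 3 genes every P28 value, that of replicate 3 included, was far below every P20 value. The naming rule that picked these 3 genes asked for groups without overlap, so the lack of overlap follows from the choice.

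Lgr6 encodes an R-spondin receptor (ENSMUSG00000042793, chromosome 1, 134983301 to 135105276, minus strand). It stood at 10157, 6307 and 9925 normalized counts at P20 and at 1418, 1538 and 1675 at P28, a log2 fold change of -2.48 (SE 0.31, adjusted p = 0.0044). Dkk2 encodes a secreted Wnt inhibitor of the Dickkopf family (ENSMUSG00000028031, chromosome 3, 132085292 to 132180304, plus strand). Its values were 6478, 4865 and 10149 at P20 and 1876, 1992 and 2018 at P28 (log2 fold change -1.80, SE 0.21, adjusted p = 0.00388). Pdgfc encodes a platelet-derived growth factor (ENSMUSG00000028019, chromosome 3, 81036416 to 81214040, plus strand), with 2617, 2503 and 1803 at P20 against 663, 665 and 722 at P28 (log2 fold change -1.74, SE 0.24, adjusted p = 0.00721). The 3 P28 values of each gene lay close together and P28 replicate 3 was the highest of them. All 6 genes also fell in WT papilla between P20 and P28, by 1.71 (Dkk2) to 5.19 (Gpc5) on the log2 scale, and none of the 6 passed the test of a difference in change between genotypes (adjusted p from 0.165 to 0.896). Gene coordinates are those of GRCm38.

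**Figure D1:**
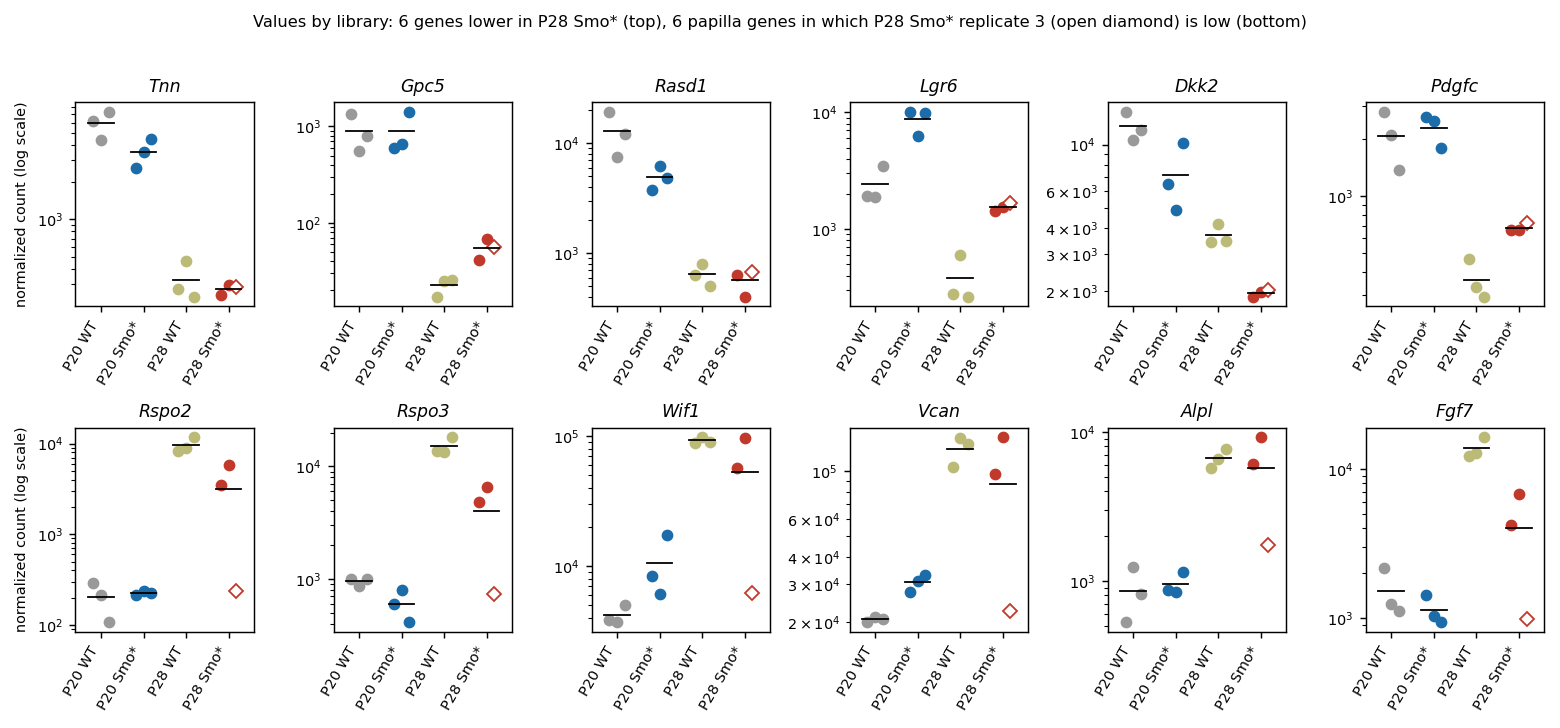
Normalized counts (log scale) of 12 genes in each library of the 4 groups; points are libraries, lines are group means, and the open diamond is P28 Smo* replicate 3. In the top row the 3 P28 Smo* values sit together below P20 Smo*, while in the bottom row the diamond lies at or near the P20 values in genes such as Rspo2 (239 normalized counts, against 3521 and 5770 in replicates 1 and 2).

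The remaining large decreases included secreted signals and matrix genes. Igfbp3, which binds insulin-like growth factors, was among the most abundant of them: it stood at 75835, 70166 and 82385 at P20 and at 8959, 3928 and 22488 at P28 (log2 fold change -3.04, SE 0.47, adjusted p = 0.0136). P28 replicate 3 kept the highest of the P28 values, still below every P20 value, and the log2 fold change without it was -3.68. The call of Igfbp3 ended without P28 replicate 1 (adjusted p = 0.0592). Wnt10a, a Wnt ligand, went from 394, 743 and 1670 to 47.4, 42.7 and 111 (log2 fold change -3.67, SE 0.51, adjusted p = 0.00721). Stac, an adaptor protein of voltage-gated calcium channels, went from 697, 1122 and 1664 to 52.9, 49.3 and 285 (log2 fold change -3.57, SE 0.59, adjusted p = 0.0142). The call of Stac ended without P20 replicate 3 (adjusted p = 0.0586) and without P28 replicate 1 (adjusted p = 0.0632). Sez6l, Lama3 (the laminin alpha 3 chain) and Lypd6b also fell, with log2 fold changes of -3.85, -3.14 and -3.08, and Orm1, an acute phase plasma protein whose near-identical copies make its count uncertain, went from 48.5, 35.7 and 322 to 5.51, 0 and 0. The call of Lama3 ended without P28 replicate 1 (adjusted p = 0.0644). Sez6l ended without each of P20 replicates 1, 2 and 3 and P28 replicates 1 and 2, with adjusted p up to 0.0879, and Lypd6b without those 5 and WT P28 replicate 2, with adjusted p up to 0.125.

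The 10 largest increases that the naming rule picked were, F5 apart, in genes with fewer than 20 normalized counts in each P20 library, and in all 10 P28 replicate 3 was the lowest P28 library. F5, which encodes coagulation factor V, stood at 857, 768 and 178 at P20 and at 14517, 25886 and 2305 at P28. Its log2 fold change was 4.28 (SE 0.75, adjusted p = 0.0169), and 5.30 without P28 replicate 3. The call ended without P20 replicate 3 (adjusted p = 0.06) or P28 replicate 1 (adjusted p = 0.0683). Mc3r, a melanocortin receptor, was read at 0, 3.48 and 0 at P20 and at 350, 505 and 5.35 at P28. Fam196b, which lies within Dock2 on the opposite strand, was read at 3.10, 0 and 0 and at 347, 623 and 13.9. P28 replicate 3 thus lay near the P20 level in both. Because the P20 values are close to 0, no fold is given for these 2 genes or for those of the next paragraph.

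Tmem215, Galnt13, Galnt14 and Nsg2 had a similar form. Galnt13, which starts O-linked glycosylation, stood at 7.23, 8.71 and 3.65 at P20 and at 313, 688 and 32.1 at P28. Nsg2, a protein of endosomal vesicles in neurons, stood at 9.30, 13.1 and 14.6 and then at 463, 655 and 90.9. Slco4c1, an organic anion transporter, differed in that P28 replicate 3 (71.7) was near replicates 1 and 2 (104 and 147), with 7.23, 1.74 and 0 at P20. The adjusted p of these 5 genes ran from 0.0175 to 0.0287, and each call ended without P20 replicate 3 and without P28 replicates 1 and 2. Without P20 replicate 1 those of Tmem215, Galnt13 and Nsg2 ended as well, and that of Galnt14 without P20 replicate 2, with adjusted p of at most 0.0996 over all of these. Gabbr2 and Plppr1 were called with adjusted p of 0.0351 and 0.0435 and lost the call on leaving out 7 and 10 of the 12 libraries, as Mc3r did for 8 (adjusted p up to 0.122), so these 3 calls were marginal.

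The papilla's own signature showed how far the result rested on P28 replicate 3. Of 38 signature genes, all tested, 2 rose and 3 fell with all libraries, which is 13.2% called beside 3.55% of all genes. Without P28 replicate 3, 17 rose and 3 fell, where 4.77% of all genes were called higher and 2.06% lower. The median log2 fold change of the list was 0.49 with all libraries and 0.91 without that one, against -0.0014 and 0.0032 over all genes tested. Rspo2, an R-spondin that amplifies Wnt signals, stood at 213, 240 and 225 normalized counts at P20 and at 3521, 5770 and 239 at P28. P28 replicates 1 and 2 were thus far above every P20 library and replicate 3 was at the P20 level. Its log2 fold change was 2.90 with all libraries (adjusted p = 0.0785, not called) and 4.31 without P28 replicate 3 (adjusted p = 5.2e-05).

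Other secreted signals of the list had the same form. Rspo3 stood at 601, 792 and 411 at P20 and at 4798, 6539 and 731 at P28, with a log2 fold change of 2.29 (adjusted p = 0.0546) and 3.27 without P28 replicate 3 (adjusted p = 3.7e-05). Wif1, a secreted Wnt inhibitor, stood at 8456, 6077 and 17350 and then at 57063, 96472 and 6185, and Vcan, the proteoglycan versican, at 27738, 30990 and 33148 and then at 96288, 142994 and 22655. Their log2 fold changes without P28 replicate 3 were 2.95 (adjusted p = 0.000602) and 1.94 (adjusted p = 0.000192), and neither was called with it (adjusted p = 0.189 and 0.182). In both genes P28 replicate 3 lay at the low end of the P20 values or below it.

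Fgf7 and Fgf10, growth factors that act on the follicle epithelium, rose by 2.26 and 1.72 on the log2 scale without P28 replicate 3 (adjusted p = 0.000896 and 0.00839). With it their adjusted p was 0.134 and 0.414. Sostdc1, a secreted BMP and Wnt antagonist, stood at 752, 517 and 1232 at P20 and at 4595, 13862 and 291 at P28. The transcription factor gene Sox2, the Wnt inhibitor gene Frzb and the protease gene Corin were also called higher only in the fit without that library, with log2 fold changes from 2.10 (Frzb) to 2.77 (Corin). The same held for Hhip, Hey1, Crabp2 and Spon1, by 0.83 (Spon1) to 1.54 (Hhip).

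Alpl and Hey2 were the 2 signature genes called higher with all libraries. Alpl, the alkaline phosphatase used to stain the papilla, stood at 871, 842 and 1151 at P20 and at 6057, 9234 and 1736 at P28, so that P28 replicate 3 was low but above every P20 value. Its log2 fold change was 2.28 (SE 0.48, adjusted p = 0.0294), and 2.98 without P28 replicate 3. The call ended without each of P20 replicates 1, 2 and 3 and P28 replicates 1 and 2 (adjusted p from 0.0631 to 0.0956). Hey2, a Notch target gene, stood at 229, 256 and 223 and then at 1903, 2968 and 444 (log2 fold change 2.52, SE 0.58, adjusted p = 0.0397), a call that 9 of the 12 omissions ended, with adjusted p up to 0.1155. Without P28 replicate 3 the log2 fold change of Hey2 was 3.33. In bulk libraries such as these, fewer cells of a type and less RNA per cell cannot be told apart.

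The 3 signature genes that fell behaved in another way. Igfbp3 is described above. Prlr, the prolactin receptor, stood at 10076, 10354 and 14949 at P20 and at 4316, 4430 and 1187 at P28 (log2 fold change -2.03, SE 0.43, adjusted p = 0.0289). Bmp4, a ligand that holds follicle stem cells quiet in telogen, stood at 6008, 7068 and 10547 and then at 4121, 4647 and 2431 (log2 fold change -1.09, SE 0.25, adjusted p = 0.0391). In Prlr and Bmp4 P28 replicate 3 was the lowest library. Without it their log2 fold changes were -1.41 (adjusted p = 0.01045) and -0.81 (adjusted p = 0.0488). The call of Prlr ended without P20 replicates 1, 2 or 3 or P28 replicate 1 (adjusted p up to 0.101), and that of Bmp4 without 8 of the 12 libraries (adjusted p up to 0.126).

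**Figure D2:**
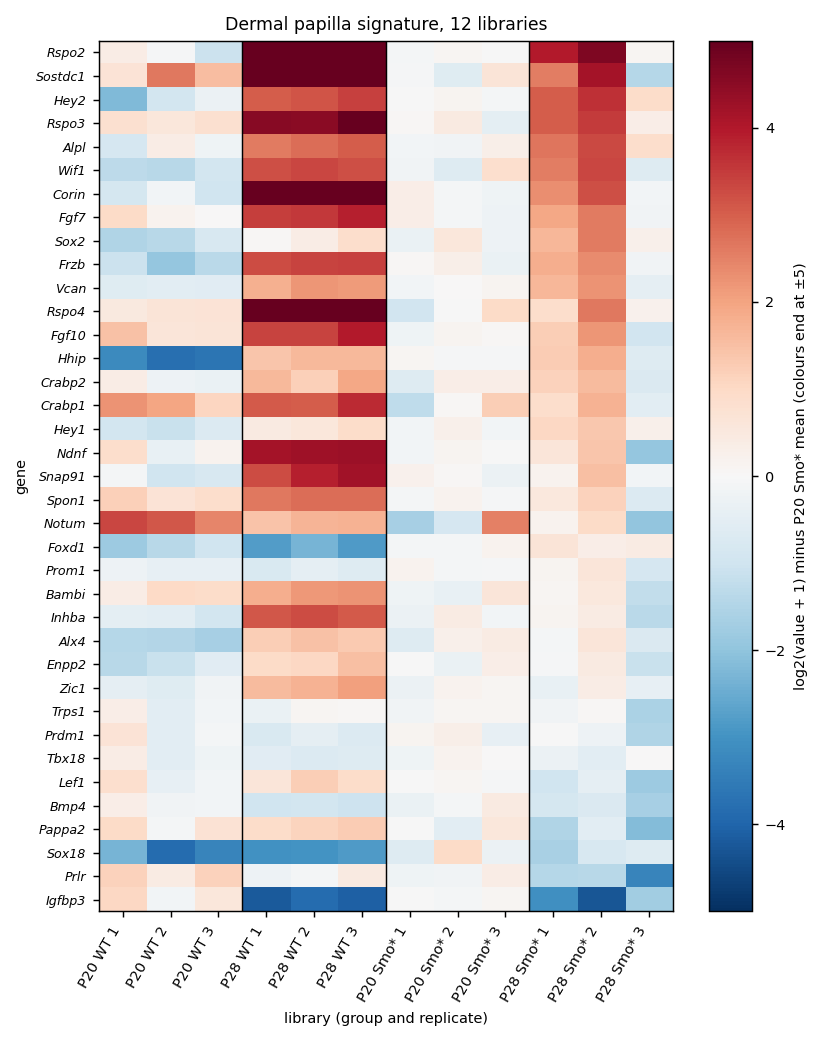
Dermal papilla signature, 37 of its 38 genes (rows, ordered by the log2 fold change without P28 Smo* replicate 3) in the 12 libraries (columns); colour is log2(value + 1) minus the mean of the 3 P20 Smo* libraries. P28 Smo* replicates 1 and 2 are red in the upper rows, as the 3 P28 WT libraries are in most of them, while replicate 3 is pale or blue there and takes 0.243% of its reads from these genes.

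The position of P28 replicate 3 was then set out over all the genes called without it. Its own values entered that choice only through the filter on the mean over 12 libraries. The same shares over all genes tested were not taken. For the 681 genes higher at P28 in replicates 1 and 2, replicate 3 was above the P20 range in 377 (55.4%), within it in 191 (28%) and below it in 113 (16.6%). For the 294 lower genes it was below the P20 range in 250 (85.0%), within it in 39 (13.3%) and above it in 5 (1.7%). On a scale where 0 is the P20 mean and 1 the mean of P28 replicates 1 and 2, the median of replicate 3 was 0.262 for the higher genes and 0.68 for the lower genes. Because the genes were chosen for a change in replicates 1 and 2, a library outside that choice is expected to fall below 1. Among the 17 signature genes called higher without it, the median was -0.078, with 3 above the P20 range, 8 within it and 6 below. Replicate 3 thus lay past the P20 range, on the side of the change, in a larger share of the lower genes than of the higher genes. It did so in few of the higher signature genes. Among the Smo* libraries, replicate 3 alone was at 0 in 1054 genes, and the part of such low values in these unequal shares was not tested. Genes with low values also varied more in replicate 3: among genes with a mean of 10 to 50 the median absolute log2 difference was 1.045 between replicates 1 and 3 and 0.586 between replicates 1 and 2.

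**Figure D3:**
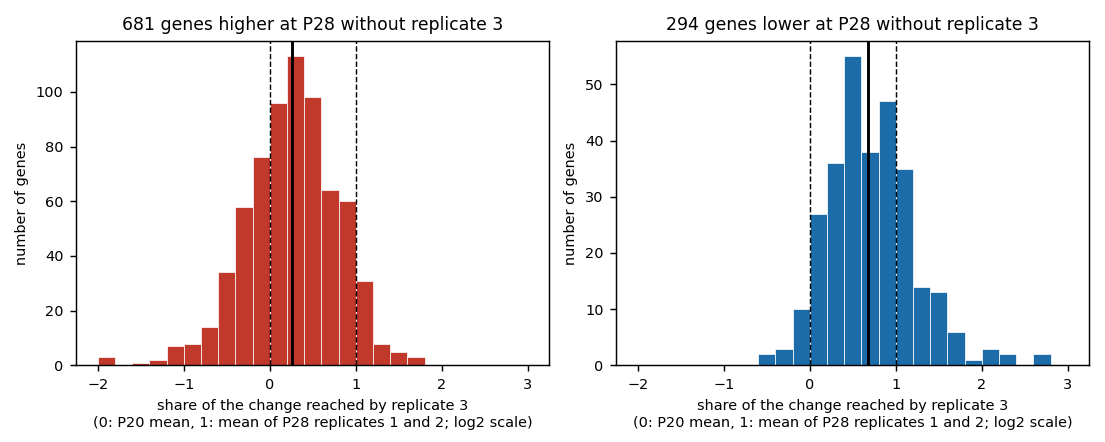
Number of genes by the share of the P20 to P28 change that P28 Smo* replicate 3 reached, for genes called higher (left, 681) or lower (right, 294) without it; dashed lines mark the P20 mean (0) and the mean of P28 replicates 1 and 2 (1), the solid line the median, and values beyond -2 and 3 are drawn at those ends. The medians are 0.262 and 0.68.

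Hedgehog pathway genes were called at a share near that of all genes. Of 18 tested target genes, Bcl2 fell and none rose (5.56% called, beside 3.55% of all genes), and none of 16 tested ligands, receptors and regulators passed. Gli1, the transcription factor whose own gene is a direct target, stood at 4443, 3665 and 5324 at P20 and at 4270, 4435 and 4071 at P28, with overlapping groups and a log2 fold change of -0.06 (SE 0.23, adjusted p = 0.908). Its sign turned without P20 replicate 3 (0.077, adjusted p = 0.907). Ptch1, the receptor that restrains Smo, stood at 32308, 42346 and 19150 and then at 51732, 61548 and 29067 (log2 fold change 0.61, SE 0.36, adjusted p = 0.339). Without P28 replicate 3 the change of Ptch1 was 0.93 (adjusted p = 0.141), with replicates 1 and 2 above every P20 value. Bcl2, an inhibitor of apoptosis, stood at 5211, 6904 and 6599 and then at 2176, 3164 and 1536 (log2 fold change -1.50, SE 0.29, adjusted p = 0.0244), and its call ended without P20 replicates 2 or 3 or P28 replicate 1 (adjusted p from 0.0539 to 0.0846).

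Hhip, a decoy that binds Hedgehog ligand, differed between the P28 libraries. It stood at 14815, 13620 and 13606 at P20 and at 33486, 49363 and 8915 at P28. The log2 fold change was 0.81 (SE 0.45, adjusted p = 0.303), and 1.54 without P28 replicate 3 (adjusted p = 0.000666). Scube1, Scube2 and Scube3, secreted proteins of a family that helps release Hedgehog ligand, were also called higher only without P28 replicate 3. In that fit 4.77% of all genes were called higher. Scube3, for example, stood at 4730, 6068 and 2415 and then at 23911, 32082 and 5391 (adjusted p = 0.0584 with all libraries and 0.000413 without that one).

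Wnt pathway genes moved in both directions. Of all genes tested 3.55% were called with all libraries and 6.83% without P28 replicate 3 (4.77% higher and 2.06% lower). Of 31 tested ligands, R-spondins and receptors, Wnt10a fell and none rose (3.23% called, near the 3.55% of all genes), and without P28 replicate 3 Wnt10b also fell while Rspo1, Rspo2, Rspo3, Wnt5a and Fzd10 rose. Of 18 tested target genes Lgr6 and Tcf7 fell (11.1% called), and without P28 replicate 3 these 2 fell while Lgr4 and Wif1 rose. Tcf7, a transcription factor that carries the Wnt signal to its targets, stood at 1433, 2470 and 2923 at P20 and at 700, 673 and 813 at P28 (log2 fold change -1.58, SE 0.28, adjusted p = 0.0184), a call that ended without P20 replicate 3 (adjusted p = 0.073) or P28 replicate 1 (adjusted p = 0.0673). Of 14 tested secreted Wnt inhibitors 3 rose and 1 fell, which is 28.6% called beside 3.55% of all genes. Without P28 replicate 3, 6 rose and 1 fell, where 6.83% of all genes were called. Sfrp1, which binds Wnt ligands, stood at 3441, 2764 and 3356 and then at 9388, 10925 and 5938 (log2 fold change 1.42, SE 0.20, adjusted p = 0.00721). P28 replicate 3 was the lowest of its P28 values but well above P20.

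Igfbp4, an IGF binding protein that can also inhibit Wnt signalling, rose in all 3 P28 libraries alike: it stood at 31616, 41338 and 34068 at P20 and at 61400, 61223 and 65300 at P28 (log2 fold change 0.82, SE 0.19, adjusted p = 0.0382). The call ended without P20 replicates 1 or 3, P28 replicates 1 or 2, or WT P28 replicate 2 (adjusted p from 0.0514 to 0.115). It also ended under quantile normalization and under scaling without the mitochondrial and top 10 genes. Draxin, a repulsive guidance cue that also inhibits Wnt signals, stood at 622, 1140 and 435 at P20 and at 4021, 5015 and 1031 at P28. P28 replicate 3 was thus within the P20 values. The log2 fold change of Draxin was 2.02 (adjusted p = 0.0432), and 2.73 without P28 replicate 3. Its call was ended by 10 of the 12 omissions (adjusted p up to 0.141). Dkk2, described above, was the inhibitor that fell.

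BMP pathway genes were called in 7 of 28 cases, 5 higher and 2 lower, which is 25.0% beside 3.55% of all genes. The fit without P28 replicate 3 had 8 higher and 2 lower, where 6.83% of all genes were called. Gdf10, a BMP-related ligand, stood at 1106, 1028 and 1071 at P20 and at 4791, 3835 and 1947 at P28, a log2 fold change of 1.62 (SE 0.27, adjusted p = 0.0142). The call ended without P28 replicate 1 (adjusted p = 0.0592). Bmp6 stood at 410, 409 and 569 and then at 1872, 3207 and 716 (log2 fold change 1.83, SE 0.39, adjusted p = 0.0312). Id2, a transcriptional target of BMP signalling, stood at 953, 893 and 909 and then at 2314, 2648 and 1349 (log2 fold change 1.14, SE 0.22, adjusted p = 0.0237). In each of the 3 genes P28 replicate 3 was the lowest P28 library and above every P20 library.

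Bmp3 and the type I receptor gene Bmpr1b also rose, by 1.26 and 2.86 on the log2 scale (adjusted p = 0.0339 and 0.0289). Bmp7 fell with Bmp4: it stood at 3333, 5385 and 5745 and then at 2470, 2556 and 2076 (log2 fold change -0.99, SE 0.18, adjusted p = 0.0209). Each of these calls ended without P20 replicate 3 and without P28 replicate 1, with adjusted p of 0.0768 and 0.0644 for Bmp7, 0.0768 and 0.0808 for Id2, 0.0768 and 0.0961 for Bmp6, 0.115 and 0.0998 for Bmp3 and 0.0991 and 0.0996 for Bmpr1b. The list therefore held both members that fell in all P28 libraries and members whose rise was smaller in P28 replicate 3. Of 20 tested TGF-beta and activin genes none was called with all libraries. Without P28 replicate 3 the activin antagonist gene Fst and the latent TGF-beta binding protein genes Ltbp1 and Ltbp3 were higher, where 4.77% of all genes were. Fst stood at 1130, 1080 and 840 and then at 5383, 6950 and 1251 (adjusted p = 0.0506 with all libraries and 3.4e-05 without that one).

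Among 18 tested IGF, PDGF and HGF genes, Igfbp3, Pdgfc and Igf1r fell and Igfbp4 and Pdgfd rose, which is 27.8% called beside 3.55% of all genes. Without P28 replicate 3, Igfbp4 was higher, and Igf2 was lower together with the 3 that fell, where 6.83% of all genes were called. Igf1r, the IGF-1 receptor, stood at 10804, 8220 and 10419 at P20 and at 5547, 5398 and 5747 at P28 (log2 fold change -0.81, SE 0.15, adjusted p = 0.0209). The 3 P28 values were close together, and the call ended without P20 replicates 1 or 3 or P28 replicates 1 or 2 (adjusted p from 0.0512 to 0.0772). Pdgfd had a log2 fold change of 0.96 (adjusted p = 0.0419), and its call ended without 7 of the 12 libraries, P28 replicate 3 among them (adjusted p = 0.0585). Of 20 tested FGF genes none was called.

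Of 31 tested axon guidance genes 3 were called (9.68%, beside 3.55% of all genes). Nrp2, a semaphorin and VEGF co-receptor, fell from 6620, 7393 and 7787 to 4222, 3504 and 5199 (log2 fold change -0.77, SE 0.16, adjusted p = 0.0262). Sema3d, a secreted semaphorin, rose from 1271, 1232 and 1086 to 2279, 1782 and 1950 (log2 fold change 0.74, SE 0.15, adjusted p = 0.0269). Dcc, a netrin receptor, rose from 283, 301 and 85.8 to 1476, 3356 and 394 (adjusted p = 0.0446). Of the 3 genes Dcc alone was much lower in P28 replicate 3 than in its replicates. Without P20 replicate 3 or P28 replicate 1 all 3 calls ended, with adjusted p from 0.0808 to 0.143; the call of Dcc ended without 11 of the 12 libraries.

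**Figure D4:**
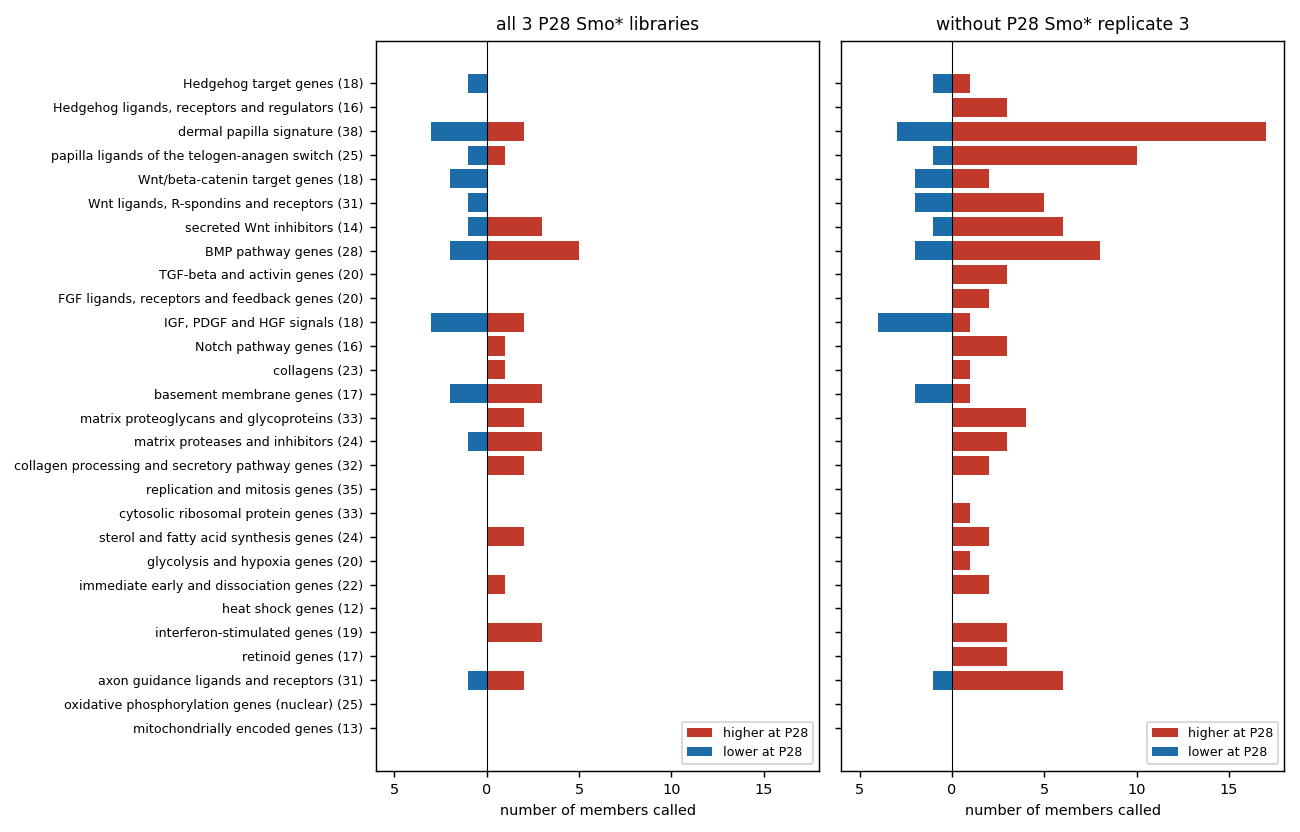
Number of members called higher (red, to the right) or lower (blue, to the left) at P28 in Smo* papilla in each of 28 gene lists (tested members in brackets), with all 3 P28 Smo* libraries and without replicate 3. The papilla signature goes from 2 to 17 higher members and from 3 to 3 lower members.

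Collagen reads took a larger part of the P28 libraries. Col1a1, Col1a2 and Col3a1, the main fibrillar collagens of the dermis, took 32.3%, 31.1% and 30.8% of the normalized counts at P20 (31.4% ± 0.802, SD, n = 3) and 40.0%, 35.3% and 43.6% at P28 (39.6% ± 4.19, SD, n = 3). The groups did not overlap, and the two-sided exact permutation test gave p = 0.1, the smallest that 3 against 3 allow. In WT the same share went from 36.9% ± 0.662 to 30.0% ± 4.02 (SD, n = 3 each). Gm26917 and Gm42418, which overlap ribosomal RNA repeats and bear on RNA quality and ribosomal depletion, took 4.91%, 5.7% and 4.62% at P20 Smo* and 2.13%, 3.6% and 2.73% at P28 Smo* (two-sided exact permutation p = 0.1). Their part in the collagen share was not tested. Of 23 tested collagen genes 1 was called (4.35%, near the share of all genes), Col5a3, which went from 6858, 8045 and 5629 to 10969, 14388 and 14714 (log2 fold change 0.97, SE 0.22, adjusted p = 0.0388), and its call was lost without P28 replicate 3 (adjusted p = 0.0543). The call of Col5a3 ended in 6 of the 12 omissions (adjusted p up to 0.127). Scaling without the top 10 genes and the mitochondrial genes moved the median of all genes by -0.107, and under it 575 of 816 called genes were lower.

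In the machinery of matrix assembly, Pcolce, an enhancer of procollagen processing, stood at 29730, 27801 and 29260 at P20 and at 53250, 43991 and 53934 at P28 (log2 fold change 0.80, SE 0.15, adjusted p = 0.0237). Lox, which crosslinks collagen, was the other of 32 tested processing genes to be called (6.25% of them, log2 fold change 0.65, adjusted p = 0.04998). The call of Lox was lost without P28 replicate 3 (adjusted p = 0.0817) and in 11 of the 12 omissions in all, and that of Pcolce without P20 replicates 1, 2 or 3 or P28 replicate 1 (adjusted p up to 0.078). Under quantile normalization neither was called, nor were Nid1 and Lamb2. Basement membrane genes were called in 5 of 17 cases (29.4%, beside 3.55% of all genes). When P28 replicate 3 was left out, Nid1 was higher and Lama3 and Smoc1 lower, where 6.83% of all genes were called. Nid1, the basement membrane linker nidogen-1, went from 43293, 43897 and 42768 to 81879, 78415 and 64983 (log2 fold change 0.79, SE 0.18, adjusted p = 0.0403), a call that 8 of the 12 omissions ended (adjusted p up to 0.115). Lamb2 and Smoc2 were also higher, by 0.62 and 0.84 on the log2 scale, and were not called without P28 replicate 3 (adjusted p = 0.0534 and 0.0815). In all, 11 of the 12 omissions ended the call of Lamb2 (adjusted p up to 0.122) and 9 that of Smoc2 (adjusted p up to 0.131).

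Lama3 and Smoc1 were the basement membrane genes that fell. Smoc1, a secreted calcium-binding matrix protein, stood at 1472, 1072 and 1131 at P20 and at 690, 651 and 619 at P28 (log2 fold change -0.89, SE 0.18, adjusted p = 0.0263), and 3 metalloproteinases of the Adamts family rose. Adamts18 went from 573, 857 and 533 to 1728, 1505 and 1340, Adamts20 from 228, 294 and 104 to 725, 528 and 483, and Adamts3 from 109, 92.3 and 72.1 to 253, 283 and 157 (log2 fold changes 1.24, 1.57 and 1.31, adjusted p = 0.0419, 0.0432 and 0.0244). Mmp11, another matrix metalloproteinase, was called lower (log2 fold change -1.34, adjusted p = 0.0464), though not without P28 replicate 3 (adjusted p = 0.065). Its call was ended by 10 of the 12 omissions (adjusted p up to 0.119). Of 24 tested matrix proteases and inhibitors, Mmp11 and the 3 Adamts genes were those called (16.7%, beside 3.55% of all genes). The calls of Smoc1, Nid1 and the 3 Adamts genes ended without P20 replicate 3 and without P28 replicates 1 and 2, with adjusted p up to 0.134. That of Adamts20 ended in 8 of the 12 omissions and that of Adamts18 in 6.

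Several lists were called at about the share of all genes (3.55%), which at their sizes is a gene or none. The interferon and sterol lists given below were called above that share. None of 35 tested replication and mitosis genes was called, with a median log2 fold change of 0.0058, and the same was true of 33 ribosomal protein genes (median 0.23), 25 nuclear oxidative phosphorylation genes and 12 heat shock genes. Of 19 interferon-stimulated genes (15.8% called) Usp18, Rsad2 and Bst2 were higher with and without P28 replicate 3. Usp18, which dampens interferon signalling, stood at 105, 63.6 and 58.4 at P20 and at 239, 167 and 182 at P28 (log2 fold change 1.39, SE 0.26, adjusted p = 0.0195). Scd1, a fatty acid desaturase, and Insig1, which holds back sterol synthesis, rose by 0.82 and 0.61 on the log2 scale among 24 sterol and fatty acid genes (8.33% called). Without P20 replicate 3 these 5 calls ended, with adjusted p from 0.0768 (Usp18) to 0.138 (Insig1), and without P28 replicate 1 they ended too, from 0.0622 (Scd1) to 0.13 (Bst2). In all, 11 of the 12 omissions ended the call of Insig1, 9 that of Bst2 and 7 that of Rsad2. For Scd1 the number was 4 and for Usp18 it was 2. The call of Insig1 also ended under scaling without the mitochondrial and top 10 genes. Klf2, a flow-responsive transcription factor, was the only 1 of 22 immediate early genes called (log2 fold change 1.08, adjusted p = 0.0388, ended by 6 of the 12 omissions).

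Markers of other cell types took unequal shares of the reads. Dermal fibroblast markers, many of which papilla cells also express, took 0.745% to 0.763% at P20 and 0.938%, 0.757% and 0.83% in P28 replicates 1, 2 and 3. The papilla signature took 0.612% to 0.833% at P20 and 0.692%, 1.19% and 0.243% in those P28 libraries. Mfap5 was called among 15 fibroblast markers (6.67%, log2 fold change 0.82, adjusted p = 0.0386, not called without P28 replicate 3). The call of Mfap5 ended in 7 of the 12 omissions (adjusted p up to 0.103). Pericyte markers took 0.0727% to 0.103% at P20 and 0.0598% to 0.0704% at P28, and none of 9 was called. The part of these cells in the results was not tested. Keratinocyte markers took 0.00883% to 0.0133% of reads, endothelial markers 0.0143% to 0.0193%, immune markers 0.00151% to 0.00429% and melanocyte markers 0.0026% to 0.0042%. Of these last 4 lists Tek alone was called with all libraries, higher at P28 with 677, 926 and 902 normalized counts at P20 and 1912, 1462 and 2280 at P28 (log2 fold change 1.16, SE 0.25, adjusted p = 0.0339). Without P28 replicate 3, Kit and Pmel were called higher as well, 2 of 5 tested melanocyte markers (adjusted p = 0.000271 and 0.0454), where 4.77% of all genes were called higher. The hair keratins Krt31 and Krt33a and the muscle genes Myod1 and Pax7 were at 0 in all 6 libraries. Other genes of their lists were read. The hair list summed to 241 to 607 normalized counts per library (0.000502% to 0.00143% of reads), lowest in P28 replicate 3. The muscle list summed to 796 to 1884 (0.00168% to 0.00393%), highest in P28 replicate 3. The summed endothelial markers were 0.0143%, 0.0145% and 0.0171% at P20 and 0.0185%, 0.0164% and 0.0193% at P28, and the median log2 fold change of the 13 markers was 1.29 (11 above 0). That median was 1.06 without P28 replicate 3. Their part in the level of Tek was not tested. Of 13 dermal sheath and smooth muscle markers 3 were called (23.1%, beside 3.55% of all genes). Tagln and Myl9, genes of the contractile apparatus, rose by 1.44 and 0.97 on the log2 scale (adjusted p = 0.0246 and 0.0212). Myocd, the coactivator of smooth muscle genes, fell from 2337, 1366 and 1849 to 761, 836 and 520 (log2 fold change -1.38, SE 0.22, adjusted p = 0.0136). The 13 markers took 0.0557% to 0.0769% of reads at P20 and 0.0651% to 0.0879% at P28. The calls of Tagln, Myl9 and Tek ended without P20 replicate 3 and without P28 replicate 1 (adjusted p from 0.0592 to 0.0949).

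In WT papilla the same change of age, from telogen to the later Anagen VI, called 3607 genes (25.3%), so the WT and Smo* libraries differ in stage at P28 as well as in genotype. Of the 507 Smo* calls 281 (55.4%) were called in the same direction in WT, 13 in the opposite direction and 213 were not called there. Those 281 were 7.79% of the WT calls. The 1894 genes higher in WT had a median log2 fold change of 0.94 in WT and of 0.26 in Smo* (0.338 without P28 replicate 3), and the 1713 genes lower in WT had medians of -0.767 and -0.199. Among genes chosen for a change of at least 4 on the log2 scale in WT, the 110 higher ones had a median of 5.12 in WT, 1.58 in Smo* and 2.56 in Smo* without P28 replicate 3, and the 23 lower ones had medians of -5.19, -2.80 and -3.0. All of these genes were chosen by their change in WT, which by itself favours larger medians in WT. The medians are therefore not a measure of the difference between genotypes.

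The difference in change between Smo* and WT was called for 682 genes (4.78%), 278 with a higher (1.95%) and 404 with a lower change in Smo* (2.83%). Without P28 replicate 3 it was called for 717 (5.03%), 323 higher (2.26%) and 394 lower (2.76%), 542 of which were among the 682 with the same direction. Of the 682 genes 601 were also called in WT, and 76 of the 507 Smo* calls were among them. Corin stood at 1044, 785 and 711 at P20 and at 4148, 7856 and 751 at P28 in Smo*, with a log2 fold change of 1.80, against 7.11 in WT (difference -5.32, adjusted p = 0.0058). Galnt3 and Cnr1 did not pass in Smo* (log2 fold changes 0.43 and -0.45) and rose by 5.92 and 4.54 in WT. Galnt3 starts O-linked glycosylation and Cnr1 is the cannabinoid receptor of the nervous system.

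Smaller in Smo* too were the changes of Sfrp1 (1.42 against 5.03 in WT, difference adjusted p = 7.7e-05) and Hhip (0.81 against 5.06, difference adjusted p = 0.00355). In Hhip the P20 values already differed by genotype, at 13606 to 14815 in Smo* and 1039 to 1528 in WT. The P20 means also differed for Galnt3 (196 in Smo* and 25.8 in WT), Smoc1 (1225 and 448) and Myocd (1851 and 508). In the other direction, Chn2, a Rac GTPase-activating protein, rose from 47.5, 61.0 and 23.7 to 368, 349 and 139 in Smo* (log2 fold change 2.64) and fell by 1.99 in WT (difference 4.63, adjusted p = 0.00383). Smoc1 fell in Smo* and rose by 1.89 in WT, and Igf1r and Myocd fell in Smo* and did not pass in WT (differences -1.08 and -1.64, adjusted p = 0.016 and 0.0125). The calls of a difference named in this paragraph held with each of the 12 libraries left out in turn.

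**Figure D5:**
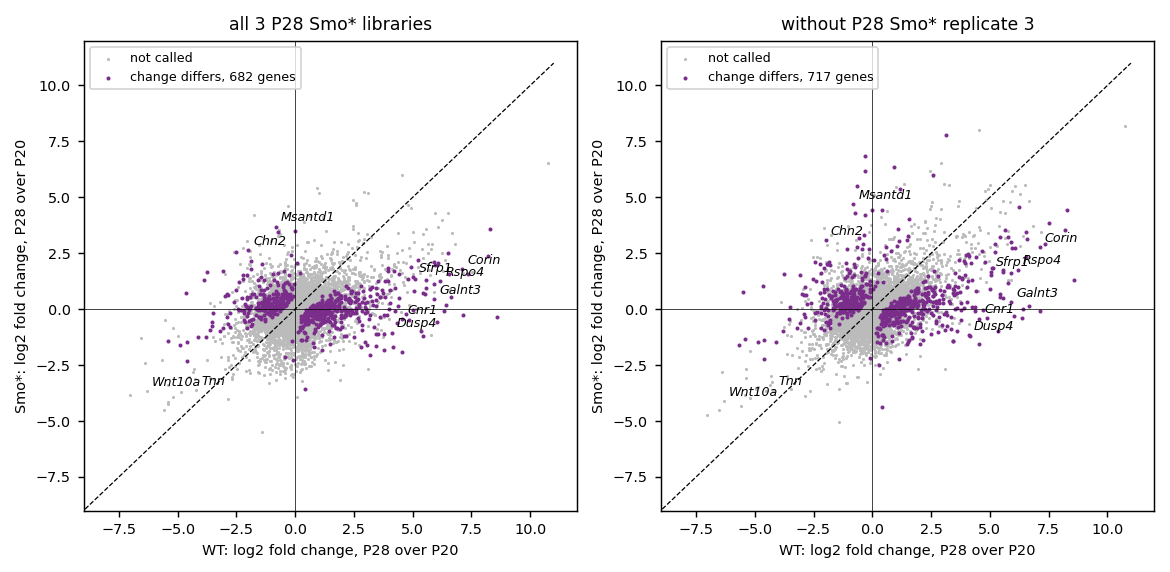
Log2 fold change from P20 to P28 in WT (x) and in Smo* (y) for 14268 genes, with all 3 P28 Smo* libraries (left) and without replicate 3 (right); purple marks genes whose change differed between genotypes (682 and 717) and the dashed line marks equal change. Genes high in WT, such as Corin and Galnt3, lie below the dashed line, and Tnn and Wnt10a lie in the lower left quadrant.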

How the data were processed

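RNA of flow-sorted papilla cells was purified (RNeasy Plus Micro), depleted of ribosomal RNA and made into strand-marking libraries (NEBNext Ultra Directional), per the labels' protocols. Trimmomatic, TopHat2 (version 2), HTSeq, DESeq2, mm10 and GRCm38.p4 are named, without roles, per the submitters' processing notes. No label states if reads were counted by strand, so a gene and an overlapping partner cannot be told apart (Gli1 and Arhgap9, Tagln and Pcsk7, Bmp6 and Txndc5, Draxin and Mad2l2, Mmp11 and Chchd10, Msantd1 and Htt, Rspo4 and Rspo4os).

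The authors deposited 2 tables of normalized counts (a signal, counts divided by a size factor per library) for 25887 genes, with their own comparisons (log2 fold change, score and p-value) of WT and Smo* at each age, which were not used here. The authors' mean per gene was, in both tables, the mean over all 12 libraries within 0.01%, so these share 1 scale. All values were whole multiples of 1 read within 0.01, and 36323058 to 48926831 reads per library were recovered. GENCODE (GRCm38) named 25639 identifiers (99.0%).

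Genes with a mean of at least 10 over the 12 libraries were kept. Among these, 492 genes of X and Y (with their scaffolds) and 30 without a chromosome were left out, which left 14268. They were tested with limma 3.58.1 (R 4.3.3), with a variance trend, on log2(value + 1) over all 12 libraries and 4 group means, with Benjamini-Hochberg adjustment at 0.05. The pseudocount makes fold changes of low genes too small. edgeR 4.0.16 and DESeq2 1.42.0 on the recovered reads were alternatives. On simulated counts (14268 genes) 35% of 100 genes changed by 1 and 82% of 100 changed by 2 on the log2 scale were called, and 7.87% of calls were unchanged genes. The simulation gave all 12 libraries the same spread per gene, with no library that stood apart. In the data the median SD of log2 values was 0.266 in P28 Smo* and 0.195 to 0.218 in the other groups. The simulated shares therefore do not cover the effect of such a library. Exact permutation tests of 3 against 3 cannot go below p = 0.1.

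The comparison, its 40 gene lists (28 of pathways, 12 of cell type markers) and the tests were chosen with earlier results of these data known. Genes were named by rule: Hhip, Ptch1, Gli1 and Smo, then 10 genes per direction with the largest changes called with and without P28 Smo* replicate 3 (mean of at least 50, no overlap), up to 4 called members of each list, the 5 largest differences from WT in each direction, and the 5 largest changes called only with that library. Further members that the text names, such as Rspo2 and Wif1, were called in the fit without it. 1 signature gene is not reported here. Replicates are numbered in accession order.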

Additional observations from a re-analysis of the deposited data

Results flagged for a closer look

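For 22 genes the change from P20 to P28 differed between Smo* and WT papilla in the test of the difference itself (limma, 12 libraries). The values are Smo* minus WT on the log2 scale, and the WT libraries at P28 are of a later anagen stage. The rise was smaller in Smo* than in WT for Sfrp1 (-3.62), Bmp6 (-2.14), Igfbp4 (-1.55), Adamts18 (-2.59) and Scd1 (-2.07). Hhip (-4.26), Corin (-5.32), Rspo4 (-4.93), Galnt3 (-5.49), Cnr1 (-4.99) and Dusp4 (-5.14), a MAP kinase phosphatase, rose in WT and did not pass in Smo*. Stac (-4.0), Smoc1 (-2.78), Myocd (-1.64) and Igf1r (-1.08) fell in Smo*. Of these Smoc1 rose in WT and the other 3 did not pass there. For Igfbp4 and Adamts18 the P20 mean was already higher in Smo* (35674 and 654) than in WT (5877 and 60). Their P28 means were also higher in Smo* (62641 and 1524) than in WT (29958 and 885). Hhip, Galnt3, Smoc1 and Myocd also started higher in Smo* (P20 means 14013, 196, 1225 and 1851) than in WT (1229, 25.8, 448 and 508). The P20 means of Sfrp1, Bmp6 and Scd1 were closer (3187, 462 and 2853 in Smo*, 2476, 301 and 3479 in WT).

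In the other direction, Chn2 (4.63) and Insig1 (1.18) rose in Smo* and fell in WT, and Adamts20 (2.52) and Msantd1 (4.51) rose in Smo* and did not pass in WT. Fgf23 (5.42), a phosphate-regulating hormone, and Msln (4.78), the surface protein mesothelin, did not pass in Smo* and fell in WT, while Mpzl2 (4.04) passed in neither genotype alone. The P20 values of Fgf23 in Smo* were 177, 20.9 and 8.21 and those at P28 were 129, 74.9 and 114.

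Most of these differences, 15 of 22, held with each of the 12 libraries left out in turn. Those of Bmp6 and Msantd1 ended in 10 omissions (adjusted p up to 0.108 and 0.0962), Mpzl2 in 8 (up to 0.0894), Fgf23 in 6 (up to 0.0763), Stac and Adamts20 in 3 (up to 0.0585 and 0.0618) and Msln in 1, without WT P20 replicate 2 (0.053).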

How the results depend on the processing

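The count of 507 genes was 22 at an adjusted p of 0.01 and 1306 at 0.1, 816 when scaled without mitochondrial and top 10 genes, 200 without a variance trend, 830 with array weights, 1581 with DESeq2, 53 with the 6 Smo* libraries alone and 40 with edgeR on those. Leaving out 1 library gave 33 to 975. The share of higher genes was 57.2%, but 29.5% under that scaling and 46.7% with quantile normalization (306 of 655). Without P28 Smo* replicate 3 the count of 975 was 304 at 0.01 and 1888 at 0.1, 1887 with DESeq2 and 473 with the 5 Smo* libraries, and 354 to 939 with a further Smo* library left out. The count of 682 differences from WT was 159 at 0.01 and 1382 at 0.1, 369 without a variance trend and 1429 with DESeq2, and 245 to 899 with 1 library left out. The low values fell without WT P28 replicate 3 (245), WT P28 replicate 2 (300) and WT P20 replicate 2 (318). TMM scaling (498), edgeR on 12 libraries (584), other filters and pseudocounts and X and Y genes kept in stayed within 1.5 times the 507. Of the 70 named calls, TMM ended 1, edgeR 1, DESeq2 1, no variance trend 40 and the 6 Smo* libraries alone 58, and none changed direction. Gli1, not called, ran from -0.192 to 0.077 with 1 library left out, the latter without P20 Smo* replicate 3. The causes were not tested. No paired analysis was possible because the labels give no replicate numbers that groups share. Depth was at least 39428285 reads in each Smo* library, and genes under a mean of 10 were not tested.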

Other observations

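The genes named here were chosen after their values were seen, and no gene group was tested with them. Cacna1c, the pore subunit of an L-type calcium channel, stood at 2353, 1874 and 2063 normalized counts at P20 and at 888, 871 and 866 at P28 in Smo* (log2 fold change -1.25, limma adjusted p = 0.00388), and rose by 0.50 in WT (difference adjusted p = 0.00102). Cacna1g, a T-type channel subunit, went from 18016, 13290 and 16242 to 5569, 7267 and 6200 (log2 fold change -1.32, adjusted p = 0.00388) and had a log2 fold change of -1.19 in WT (difference adjusted p = 0.78). Irf8, an interferon regulatory factor best known from myeloid cells, went from 347, 366 and 605 to 110, 80.6 and 77.0 (log2 fold change -2.26, adjusted p = 0.00236), and immune markers as a whole took 0.00151% to 0.00429% of reads. Chd7, a chromatin remodeller, and Sox11, a transcription factor, fell by 2.15 and 1.39 on the log2 scale (adjusted p = 0.00721 and 0.00809). C7, a terminal complement component, rose from 91.9, 86.2 and 120 to 1909, 979 and 633 (log2 fold change 3.42, adjusted p = 0.00183). All 6 calls held with each of the 12 libraries left out in turn, and in each gene P28 replicate 3 lay outside the P20 values on the same side as its replicates.

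Some genes passed only in the fit without P28 replicate 3. The imprinted genes H19, Dlk1, Zdbf2 and Igf2 were lower at P28 in replicates 1 and 2, with log2 fold changes of -2.15, -1.35, -1.54 and -1.55 (adjusted p = 0.00108, 0.011, 0.0244 and 0.0107). H19 stood at 1883, 2463 and 2866 at P20 and at 429, 658 and 1955 at P28. With all libraries the adjusted p of these genes was 0.0677, 0.0527, 0.0611 and 0.123. Of other imprinted genes looked at, Peg3, Mest and Plagl1 did not pass in either fit. Kit, a receptor that marks melanocytes, stood at 19.6, 8.71 and 22.8 at P20 and at 220, 248 and 19.3 at P28 (adjusted p = 0.000271 without replicate 3). Pmel was the other melanocyte marker called higher in that fit (adjusted p = 0.0454). Melanocyte markers in sum took 0.0031% to 0.0042% of reads at P20 and 0.0026% to 0.004% at P28.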
